A study of Mus musculus with 1536 samples.

Results

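Serotonin neurons with the most and the fewest Tph2 reads were compared within the plates they were sorted into. In each of 16 plates the cells were ranked by their Tph2 level, as read counts scaled to a fixed total per cell (CPM), and selected on it: equal numbers from the top and the bottom were taken, the number being the plate's cells divided by 3 and rounded down. This gave 327 Tph2-high cells and 327 Tph2-low cells of 999, and the 345 cells between them served only as a reference. All cells were tdTomato+ neurons of C57BL/6J mice aged 40 to 45 days in which Cre under the serotonin transporter gene Sert (Slc6a4) switched on the Ai14 reporter, and all were read singly by Smart-seq2. Of them, 290 came from 5 plates of the principal dorsal raphe (DR) and 709 from 11 plates labelled all DR, a dissection that by the study's account also took in the median raphe and the caudal extension of the DR. The reporter marks any cell in which Sert was ever active, so it also holds cells whose serotonin programme is low. The labels name plates and not animals, so plate-to-plate spread can be partly technical. The study lists fewer brains than there are all DR plates, so plates of that dissection can share an animal. Plates were the unit of every test but cannot be taken as independent animals, and p-values measure the spread between plates only.

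Tph2 encodes neuronal tryptophan hydroxylase, the rate-limiting enzyme of serotonin synthesis. Its product is decarboxylated by aromatic amino acid decarboxylase (Ddc), loaded into vesicles by the vesicular monoamine transporter (Slc18a2), taken back from outside the cell by the serotonin transporter (Slc6a4) and degraded by the monoamine oxidases (Maoa, Maob). In the raphe these neurons form several subtypes that differ in peptides, receptors and projections.

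Tph2 chose the cells, so its levels are given without a test. Plate means in Tph2-low cells ranged from 5216 to 7550 CPM (median 5944), in the middle cells from 7059 to 11498 (median 9894) and in Tph2-high cells from 9607 to 15020 (median 13587). The high to low ratio of plate means was between 1.73 and 2.55. Principal DR plates were the lower ones, with Tph2-high means from 9607 to 11358 CPM against 12735 to 15020 in all DR plates, so a Tph2-high cell of the principal DR could have less Tph2 than a middle cell of the all DR group. At the cuts the cells lay close together. The highest Tph2-low cell of a plate had 6525 to 9535 CPM and the next cell 6534 to 9732, while the lowest Tph2-high cell had 8368 to 12950 CPM and the cell before it 8301 to 12762. Tph2 lies on the minus strand at chr10:115078641-115185022 (GRCm38).

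**Figure D1:**
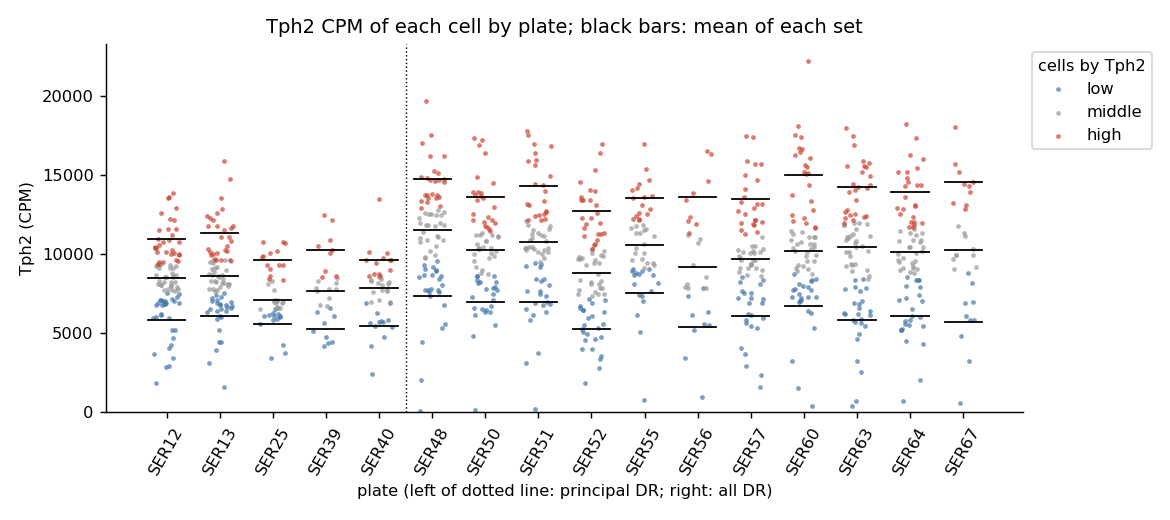
Tph2 CPM (y axis) of each of 999 cells by plate (x axis), with principal DR plates left of the dotted line; blue, grey and red points are Tph2-low, middle and Tph2-high cells and black bars are the mean of each set. Low means lie between 5216 and 7550 CPM and high means between 9607 and 15020.

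Promoter windows of Tph2 and of 3 serotonin genes are shown because these genes moved together. The 3 were higher in Tph2-high cells both within plates and within clusters. The window of Hmgcs1 is shown because it held the sterol response element given below. It was the 1 match among 15 cholesterol synthesis windows, and 0 of 10 windows of genes for acetyl-CoA supply or sterol targets matched. Each window shown runs from 250 bases before to 50 after the start (RefSeq, GRCm38.p6). Capitals mark matches on either strand to 3 motifs, which do not overlap here. The sterol response element searched was TCACNCCAC. The motif of ETS factors, the family of Fev, was CCGGAAG. For the GATA factors, which include Gata2 and Gata3, the letters AGATAA were used. Tph2 is at chr10:115184973-115185272 (minus), Slc6a4 at chr11:76998347-76998646 (plus), Ddc at chr11:11898095-11898394 (minus), Slc18a2 at chr19:59260628-59260927 (plus) and Hmgcs1 at chr13:119690101-119690400 (plus).
Tph2: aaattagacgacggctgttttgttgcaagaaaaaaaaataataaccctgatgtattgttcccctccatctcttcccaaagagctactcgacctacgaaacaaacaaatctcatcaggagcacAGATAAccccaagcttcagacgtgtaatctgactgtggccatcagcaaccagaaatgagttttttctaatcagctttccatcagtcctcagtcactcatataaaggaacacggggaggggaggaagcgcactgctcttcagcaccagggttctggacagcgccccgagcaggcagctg
Slc6a4: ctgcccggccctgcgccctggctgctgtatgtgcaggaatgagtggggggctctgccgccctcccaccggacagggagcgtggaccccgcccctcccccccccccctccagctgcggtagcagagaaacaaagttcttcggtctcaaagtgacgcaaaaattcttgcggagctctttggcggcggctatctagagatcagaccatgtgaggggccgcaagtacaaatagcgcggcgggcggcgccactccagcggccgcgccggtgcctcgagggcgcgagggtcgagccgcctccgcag
Ddc: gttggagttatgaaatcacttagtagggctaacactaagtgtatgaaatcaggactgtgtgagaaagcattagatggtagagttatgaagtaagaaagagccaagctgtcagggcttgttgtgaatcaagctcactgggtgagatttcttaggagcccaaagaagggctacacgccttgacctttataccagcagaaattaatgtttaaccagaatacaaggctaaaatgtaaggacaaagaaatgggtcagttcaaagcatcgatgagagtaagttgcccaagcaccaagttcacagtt
Slc18a2: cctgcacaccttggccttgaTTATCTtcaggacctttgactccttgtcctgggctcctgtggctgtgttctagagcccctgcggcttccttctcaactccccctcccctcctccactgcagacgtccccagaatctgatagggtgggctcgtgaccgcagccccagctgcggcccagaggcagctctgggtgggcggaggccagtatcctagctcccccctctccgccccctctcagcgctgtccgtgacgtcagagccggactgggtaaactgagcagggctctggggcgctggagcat
Hmgcs1: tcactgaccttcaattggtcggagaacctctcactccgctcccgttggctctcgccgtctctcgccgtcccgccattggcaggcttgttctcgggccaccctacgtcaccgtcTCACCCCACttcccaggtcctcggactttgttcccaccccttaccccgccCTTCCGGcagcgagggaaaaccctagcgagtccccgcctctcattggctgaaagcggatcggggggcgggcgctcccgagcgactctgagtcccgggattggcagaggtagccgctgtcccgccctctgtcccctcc
Tph2 and Slc18a2 each held AGATAA, which 342 of the 6440 tested genes with a promoter window (5.31%) and 11.4% of all windows hold. Hmgcs1 was chosen for holding TCACNCCAC, found in 66 tested genes (1.02%) and 1.22% of all windows, so that match is not a result. It also held CCGGAAG, found in 20.5% of tested genes and 9.12% of all. Slc6a4 and Ddc held no match in this window.

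The Tph2-high cells carried more reads and more genes. Their plate means ran from 549043 to 1603175 reads on genes (median 980991) against 472480 to 1306413 (median 805497) in Tph2-low cells, and were higher in 16 of 16 plates (adjusted p = 6.1e-05, exact sign-flip permutation test over plates, two-sided). Detected genes averaged 9726 ± 352 (SD, n = 16 plates) against 8728.5 ± 401 and were also higher in all 16 plates (adjusted p = 6.1e-05 by the same exact test). After each cell was thinned to 250000 reads, which left out 9 shallower cells, the means were 8740 ± 398 and 8049 ± 460. The mitochondrial share of reads did not pass that exact test, at 3.05% ± 0.79 against 2.86% ± 0.44 (adjusted p = 0.151), and the share on the 50 highest genes was 33.2% against 33.1% (adjusted p = 0.739). Depth therefore moved with Tph2, and 3 other fits bear on it. With cells thinned to 250000 reads, 886 genes were called, 770 of them among the 1005 described next. In a slope on Tph2 over all cells with the reads and detected genes of each cell as covariates, an alternative added after the calls had been seen, 12 genes were called, Slc7a8 and Chgb among them, and 921 of the 1005 kept their sign. Hmgcs1 did not pass there (0.29, adjusted p = 0.119). With the plate difference in detected genes as a covariate of the limma fit, 0 genes were called, with 204 at an unadjusted p under 0.05, and 741 of the 1005 kept their sign.

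Over all plates, 1005 of 8086 genes with a mean over 10 CPM differed between Tph2-high and Tph2-low cells (12.4%), 439 higher (5.43%) and 566 lower (7.00%) in the Tph2-high cells, in a limma fit of the 16 plate differences in log2(mean CPM + 1) with Benjamini-Hochberg adjustment (threshold 0.05). The called genes differed by a median of 0.31 (higher) and 0.38 (lower) on the log2 scale, and 57 and 52 had the same sign in all 16 plates. For 410 of the 439 and 514 of the 566, the middle cells lay between. The call counts depend on the scale on which cells are averaged. With each cell's log2(CPM + 1) averaged, 2931 were higher and 189 lower (93.9% higher, against 43.7% here), with the median gene 0.23 higher, and edgeR on recovered reads gave 624 and 506 (55.2% higher).

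Cluster makeup moved with Tph2. Clusters made from these cells without Tph2, numbered by size, held 91 Tph2-high and 29 Tph2-low cells in cluster 1 (led by Sst, Pdyn and Npy2r), 70 and 5 in cluster 3 (Piezo2, Pter, C1ql3) and 48 and 9 in cluster 6 (Rorb, Wnt4, Gal). Tph2-low cells held 64 of cluster 2 against 8 Tph2-high (Sostdc1, Pth2r, Wnt4), 56 against 3 of cluster 5 (Npas1, Nell1, Pth2r), 34 against 1 of cluster 11 (Grik1, Spp1, Nmbr) and 19 against 0 of cluster 12 (Tecrl, S1pr3, P2ry1). Clusters 4 (Gad1, Trh, Prph), 8 (Cwc22, Gm7292, Rasgrp1) and 9 (Ccdc85c, Slc39a1, Rn7sk) came only from the principal DR. They split more evenly, with 36 and 28, 23 and 24, and 18 and 19. By the study's account the all DR dissection also took in the principal DR. Clusters may therefore follow plate sets as well as subtypes, which was not tested. Cluster 7 (67 cells, 55 of them from the principal DR), led by Rgs5, Apoe and Mbp, held 18 Tph2-high and 33 Tph2-low cells and the cell with the least Tph2, 16.57 CPM. Its median cell had 6542 CPM of Tph2, against 4321 in cluster 11 and 6433 in cluster 12. The leading genes of cluster 7 are markers of pericytes, glia and oligodendrocytes. Apoe was at 331 CPM against 17.8 as the mean of the other cluster means, and Mbp at 932 against 54.2. In cluster 10 (Sox14, Asb4, Adamtsl2) the numbers were 11 and 7. The Tph2-high and Tph2-low cells thus differed in cluster as well as in Tph2, and the genes were compared a second time with the ranking done within each cluster of each plate. There 56 genes were higher (0.693%) and 50 lower (0.618%), and 76 of these 106 were called the same way over plates. The clusters were made from the same genes, so a gene that separates clusters has less room to differ within them. Groups of fewer than 3 cells in a plate were left out of this second comparison. Its Tph2 contrast was not measured, so its counts and differences are not directly comparable with those over plates.

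**Figure D2:**
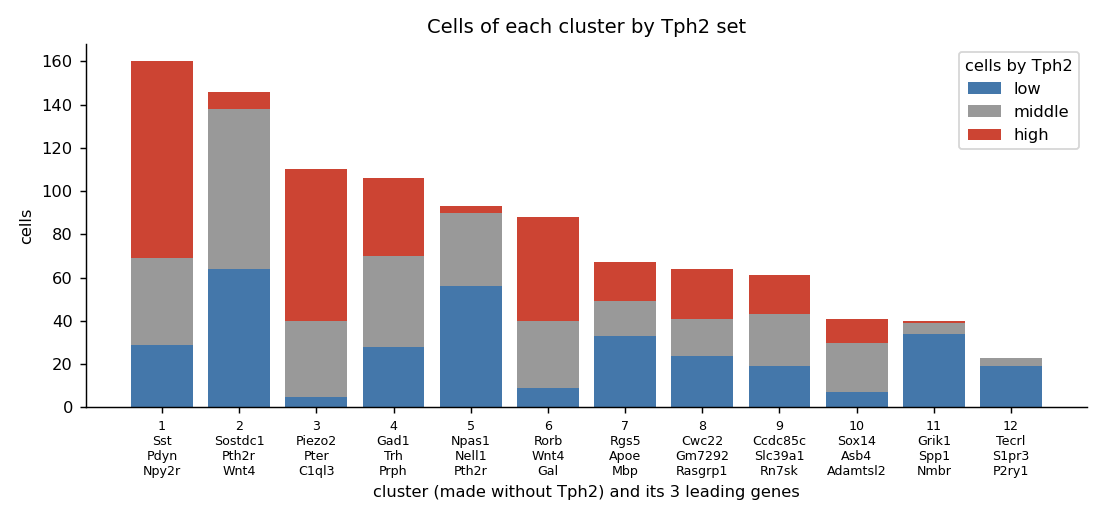
Number of cells (y axis) in each of 12 clusters (x axis, with the 3 leading genes of each), coloured by Tph2 set. Tph2-high cells fill most of cluster 3 (70 of 110), and Tph2-low cells most of clusters 11 (34 of 40) and 12 (19 of 23).

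Of the 8 genes of serotonin synthesis, transport and breakdown tested, 5 were higher in Tph2-high cells and none lower, beside 5.43% and 7.00% of all genes. Their median difference was 0.26 on the log2 scale against -0.02 over all genes. Within clusters 3 were higher, beside 0.693% of all genes. Slc6a4 had plate means from 2094 to 4201 CPM (median 2753) in Tph2-low cells and from 3048 to 5501 (median 4044) in Tph2-high cells. It was higher in 16 of 16 plates, by 0.57 ± 0.07 on the log2 scale (SE; adjusted p = 0.00021), and by 0.40 within clusters (adjusted p = 0.000529).
Ddc ran from 1955 to 3247 CPM (median 2469) in Tph2-low and from 2604 to 3609 (median 2964) in Tph2-high cells, with overlapping groups but the same sign in all 16 plates (0.25 ± 0.04, adjusted p = 0.000573; within clusters 0.24, adjusted p = 0.00851). Slc18a2 went from a median of 2517 CPM to 2903 and was higher in 15 of 16 plates (0.29 ± 0.05, adjusted p = 0.00266), and by 0.36 within clusters (adjusted p = 0.00584). Its middle cells had the highest median, 3359 CPM. Among the oxidases, Maob had plate means of 396 to 1592 CPM (median 820) in Tph2-low and 605 to 1878 (median 1230) in Tph2-high cells and was 0.43 ± 0.09 higher (adjusted p = 0.00734), but its within-cluster difference, 0.24, did not pass (adjusted p = 0.127). Maoa was higher by 0.26 (adjusted p = 0.0447), had a within-cluster difference of 0.02 and was called in 4 of the 16 fits that each left out a plate. With reads and detected genes of the cell as covariates none of these 5 passed, with slopes of 0.34 for Slc6a4 (adjusted p = 0.0838), 0.30 for Ddc (adjusted p = 0.17) and 0.39 for Slc18a2 (adjusted p = 0.0529) per log2 unit of Tph2. After thinning, Maoa alone of the 5 was no longer called (0.22, adjusted p = 0.099). Slc22a3 (an organic cation transporter), at -0.31, did not pass, nor did Slc29a4 or Aldh2.

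**Figure D3:**
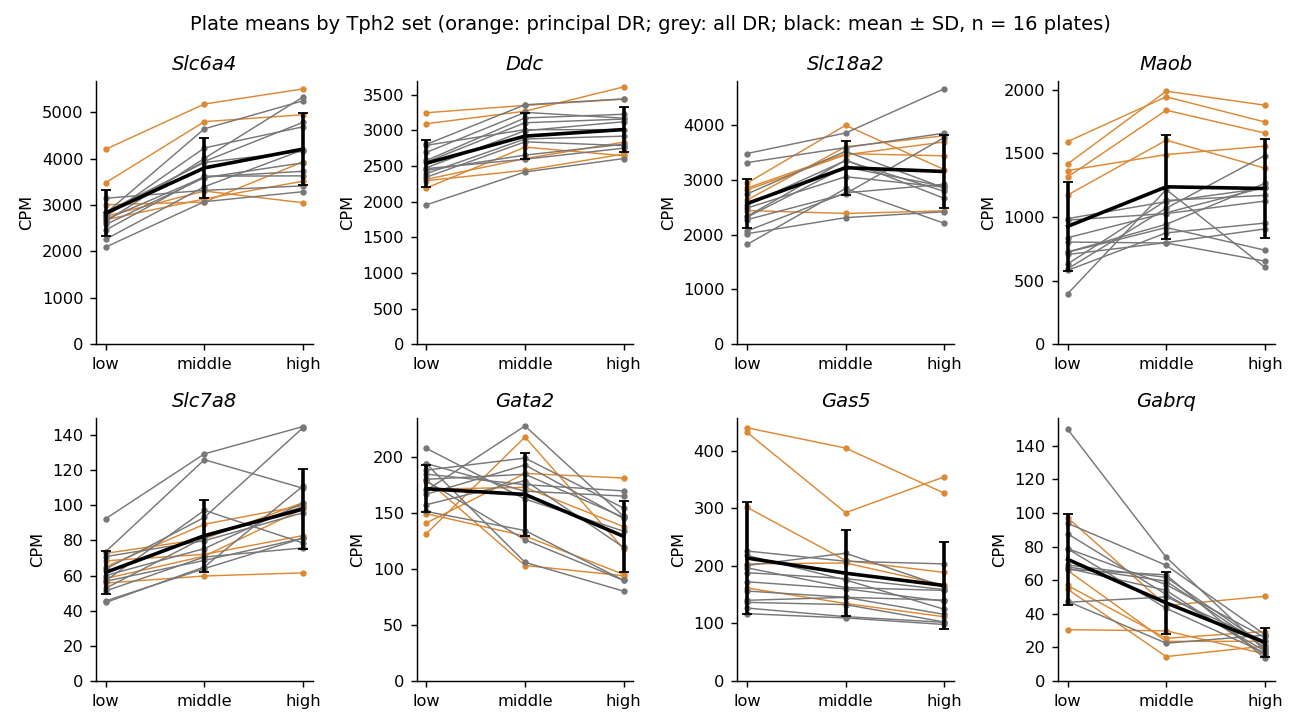
Plate means (CPM, y axis) of 8 genes in Tph2-low, middle and Tph2-high cells (x axis), one line per plate, orange for the principal DR and grey for the all DR group; black is the mean with SD over 16 plates. The serotonin genes Slc6a4 and Ddc rise in 16 of 16 plates and Gas5 and Gabrq fall in 16 of 16.

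Of 7 enzymes and regulators that make and recycle tetrahydrobiopterin, the cofactor of tryptophan hydroxylase, none was higher and 1 was lower. The counts in this paragraph stand beside 5.43% higher and 7.00% lower of all genes tested. Gch1, its rate-limiting enzyme, was 0.04 higher (adjusted p = 0.736), and only Qdpr, which recycles the cofactor, was called, lower by 0.22 (adjusted p = 0.0438) with a difference of 0.00 within clusters and called in 3 of 16 leave-one-out fits. Of 5 subunits of amino acid transporters that carry tryptophan, 3 were under the filter and the 2 tested were higher. Slc7a8 rose in 16 of 16 plates by 0.65 ± 0.08 (median 59.2 CPM in Tph2-low, 98.5 in Tph2-high cells; adjusted p = 0.00021) and Slc3a2 in 14 plates by 0.39 ± 0.08 (adjusted p = 0.00605). Slc3a2 was 0.55 higher in the all DR plates and 0.03 in the principal DR, a difference that did not pass (adjusted p = 0.168), and its slope with depth covariates was 0.10 (adjusted p = 0.764). Within clusters they were 0.20 and 0.14 higher and neither passed (adjusted p = 0.142 and 0.233). Of 6 genes for 14-3-3 proteins, which bind the phosphorylated hydroxylase, Ywhah and Ywhaz were higher by 0.15 and 0.12, and both lost the call within clusters.

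Of 5 transcription factors that specify serotonin neurons, 1 was higher and 1 lower, beside 5.43% and 7.00% of all genes tested. Fev (Pet-1), the classic activator of serotonin genes, had plate means from 179 to 264 CPM (median 218) in Tph2-low and from 156 to 273 (median 202) in Tph2-high cells. It was lower in 12 of 16 plates, by 0.15 ± 0.05, which did not pass (adjusted p = 0.0732). Gata2 was lower by 0.44 ± 0.10 (median 174 against 136 CPM; adjusted p = 0.00869) in 15 of 16 plates, and its relative Gata3 was higher by 0.25 ± 0.07 (adjusted p = 0.0272) in 12. Within clusters no member of this list passed, and Lmx1b and En1 were not called either way.

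Cholesterol synthesis genes were higher in Tph2-high cells, in a list written after the values had been seen. Of its 20 members 15 were higher and none lower, all 20 differences were above 0 and their median was 0.32. Among all genes tested 5.43% were higher and 7.00% lower over plates, and 0.693% and 0.618% within clusters. Hmgcs1, which makes HMG-CoA, had plate means of 321 to 485 CPM (median 430) in Tph2-low and 426 to 647 (median 552) in Tph2-high cells and was higher in 16 of 16 plates (0.39 ± 0.05, adjusted p = 0.000206), and by 0.28 within clusters (adjusted p = 0.0293). Nsdhl, a late step (0.60 ± 0.08, adjusted p = 0.000366) and Mvk, which phosphorylates mevalonate (0.64 ± 0.10, adjusted p = 0.00095), were among the largest. Within clusters only Hmgcs1 passed; Nsdhl was 0.46 higher (adjusted p = 0.0603). Genes that supply acetyl-CoA or are sterol targets, another list written with the values known, gave 6 higher and 1 lower of 13 and none within clusters. Acly, which makes acetyl-CoA in the cytosol, was higher by 0.40 ± 0.05 (adjusted p = 0.000312) and Scd1, a fatty acid desaturase, by 1.00 ± 0.15 (adjusted p = 0.000746). Neither passed within clusters. Srebf2, the sterol regulator of this pathway, was 0.26 lower. Acss2, 0.76 higher, overlaps Ggt7 and Gss on the opposite strand, and their reads may not be told apart.

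Axon cytoskeleton genes were also higher. Of 17 genes 11 were higher and none lower, with a median of 0.34, and within clusters 3 were higher (Nefl, Nefh and Map1b) and 1 lower (Stmn4). The shares over all genes tested were 5.43% higher and 7.00% lower, and within clusters 0.693% and 0.618%. Map1b, a microtubule-associated protein of axons, ran from 3325 to 5183 CPM (median 4222) in Tph2-low and from 4352 to 7255 (median 5076) in Tph2-high cells (0.40 ± 0.05, adjusted p = 0.000299; within clusters 0.18, adjusted p = 0.024). The neurofilament subunits Nefh (0.62 ± 0.10, adjusted p = 0.00117; within clusters 0.56, adjusted p = 0.00474) and Nefl (0.43 ± 0.12, adjusted p = 0.0323; within clusters 0.46) were higher, while Nefm, 0.70 higher, was 0.60 higher within clusters (adjusted p = 0.0601). Nefl and Nefm overlap on opposite strands, so their reads cannot be fully told apart. Among tubulins, a list written after the values had been seen, 8 of 12 were higher and 1 lower, and 1 within clusters (Tuba4a, 0.18 higher, adjusted p = 0.0338). The 4 members Tuba1a, Tubb2a, Tubb3 and Tubb4a, all higher, also belong to the axon list and are counted in both. Examples are Tubb3 (0.34 ± 0.05, adjusted p = 0.000379) and Tuba1a (0.37 ± 0.06, adjusted p = 0.000611), which have near-identical relatives whose reads can be split between them. With reads and detected genes of the cell as covariates the slopes of Nefm (-0.09), Tubb3 (-0.01) and Tubb4a (-0.06) on Tph2 turned sign. In that fit Nefh (0.10, adjusted p = 0.834), Nefl (0.12, adjusted p = 0.81) and Map1b (0.205, adjusted p = 0.1645) stayed above 0 but did not pass.

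Of 23 synaptic vesicle and release genes, 5 were higher and 2 lower, beside 5.43% and 7.00% of all genes tested. Within clusters 4 were higher (Snap25, Syn1, Nsf and Napb) and none lower, beside 0.693% and 0.618% of all genes tested. Napb, a SNARE disassembly protein, was higher in 16 of 16 plates (0.41 ± 0.04, median 461 against 617 CPM; adjusted p = 5.31e-05; within clusters 0.21, adjusted p = 0.0241). Cplx1 was higher in 14 plates by 0.35, and Cplx2 was lower by 0.27 and Vamp1 by 0.29. Both of the lower genes depended on the setting. Cplx2 was 0.14 higher within clusters (12 of 16 plates, adjusted p = 0.269) and had a slope of 0.12 on Tph2, and Vamp1 was -0.03 within clusters, had a slope of 0.06 and was called in 6 of 16 leave-one-out fits. In dense-core granules Chgb, a granin, rose in 16 of 16 plates (0.49 ± 0.08, adjusted p = 0.00107) and Pcsk1, a prohormone convertase, in 14 (0.60 ± 0.12, adjusted p = 0.00451), while Pcsk2, the other convertase, fell by 1.01 ± 0.18 (adjusted p = 0.0023). Only Vgf of the 14 granule genes was called within clusters, where it was 0.65 higher (adjusted p = 0.0485), and over plates it was 0.18.

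GABA-A receptor subunits went the other way. In this list, also written after the values had been seen, 8 of 11 were lower and 1, Gabrg3, higher. The shares over all genes tested were 7.00% lower and 5.43% higher, and within clusters 0.618% and 0.693%. Gabrq had plate means of 30.5 to 150 CPM (median 67.4) in Tph2-low and 13.4 to 50.4 (median 21.0) in Tph2-high cells, was lower in 16 of 16 plates by 1.60 ± 0.21 on the log2 scale (adjusted p = 0.000299) and by 0.53 within clusters (adjusted p = 0.0414). Gabre fell by 2.24 ± 0.50 (adjusted p = 0.00794) and by 0.75 within clusters, where it did not pass (adjusted p = 0.0502). Gabra2 was lower by 0.71. Of 9 long noncoding RNAs, a list likewise written with the values known, 4 were lower and none higher, and 2 were lower within clusters (Gas5 and Snhg11). Malat1, Rian and Kcnq1ot1 were among those not called (0.03, -0.16 and -0.10). Gas5 ran from 117 to 440 CPM (median 192) in Tph2-low and from 98.1 to 355 (median 149) in Tph2-high cells and was lower in 16 of 16 plates (-0.36 ± 0.06, adjusted p = 0.000798; within clusters -0.26, adjusted p = 0.0274). Snhg11 fell by 0.29 and Meg3 by 0.26.

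**Figure D4:**
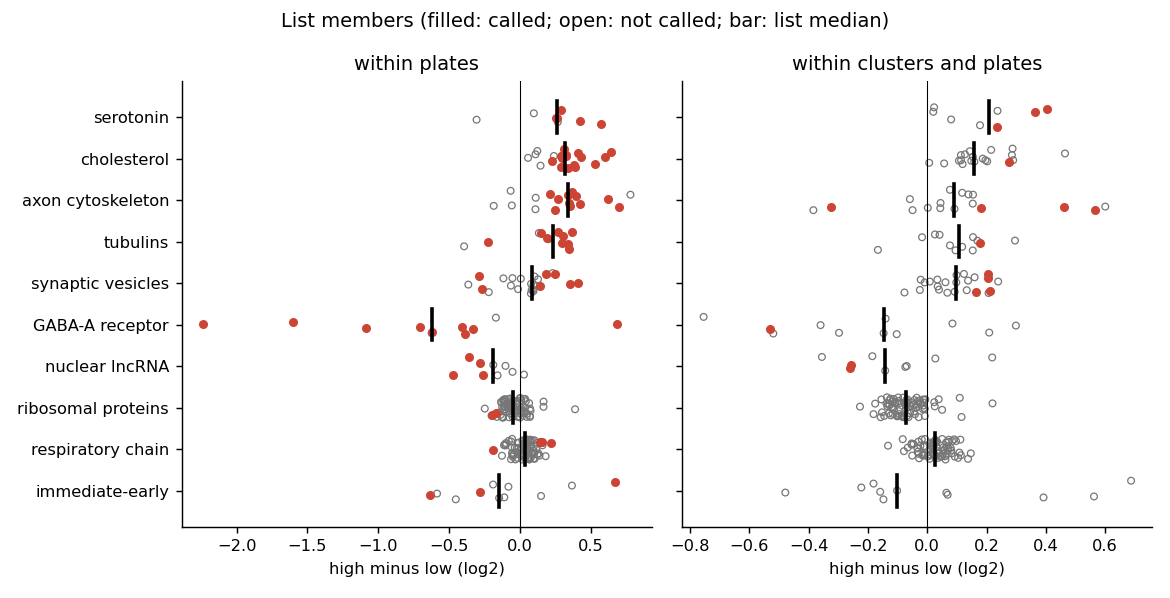
Difference between Tph2-high and Tph2-low cells (log2, x axis) of the members of 10 gene lists over plates (left) and within clusters (right, narrower axis); filled points are called, open points are not, bars are list medians. Cholesterol (0.32) and axon cytoskeleton (0.34) medians sit right of 0 and GABA-A receptor subunits left of it.

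Of the 10 largest called differences in each direction with the same sign in at least 14 plates, 3 of the higher and 2 of the lower genes were called within clusters. Grik1, lower by 2.02 in 13 plates, falls outside this limit. Higher ones were Nr2f2 (1.88 ± 0.48, a transcription factor; adjusted p = 0.0166), Gal (1.84 ± 0.49, the neuropeptide galanin; adjusted p = 0.0212), Ramp3 (1.79), Crhr2 (1.75 ± 0.44, a corticotropin-releasing hormone receptor), Oasl2 (1.74), Npy2r (1.71), Gsta4 (1.39), Pcdh15 (1.36), Rorb (1.33) and Ostf1 (1.29). Of these Crhr2 (0.95, adjusted p = 0.0242), Oasl2 (0.68) and Gsta4 (0.97) were called within clusters. All 3 were still called after thinning. In the slope with reads and detected genes of the cell as covariates none of the 3 passed. There Crhr2 was at 0.30 (adjusted p = 0.652), Oasl2 at 0.89 (adjusted p = 0.0838) and Gsta4 at 0.26 (adjusted p = 0.663). Lower ones included Dlk1 (-2.34 ± 0.64, adjusted p = 0.0229), Gabre, Nell1 (-1.81), Alcam (-1.72), Sema5a (-1.69 ± 0.24, adjusted p = 0.000379), Muc6 (-1.68), Gabrq, Ramp1 (-1.59) and Pcdh7 (-1.56). Gabrq and Pcdh7 (-0.88) were called within clusters, and Dlk1 was -0.10. Among receptors for serotonin, Htr1d fell by 1.35 ± 0.24 (adjusted p = 0.00176) and Htr5b rose by 1.08 ± 0.24 (adjusted p = 0.00784). Slc17a8, a vesicular glutamate transporter, was higher by 0.92 ± 0.24 (adjusted p = 0.0193). Within clusters these 3 were at -0.21, 0.49 and 0.72, and none passed (adjusted p = 0.253, 0.238 and 0.128).
Larger differences than these were seen in genes that did not pass. Their SEs are moderated by a variance prior that in the default fit follows the size of the difference. They therefore do not give the plate-to-plate spread alone. Calcr was lower in 16 of 16 plates, with medians of 94.2 and 17.7 CPM (-2.74 ± 1.08, adjusted p = 0.104), and Oxtr was higher in all 16 (2.30 ± 1.10, adjusted p = 0.179). Sst was -2.64 ± 1.08 (adjusted p = 0.117) and lower in 15 plates, though it led cluster 1, which held more Tph2-high than Tph2-low cells. These 3 were chosen after their values were seen. With the variance trend taken over expression level instead of the size of the difference, an alternative also chosen after the calls had been seen, each passed (adjusted p = 2.17e-06, 7.35e-05 and 0.00427), and so did Fev (adjusted p = 0.0321).

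**Figure D5:**
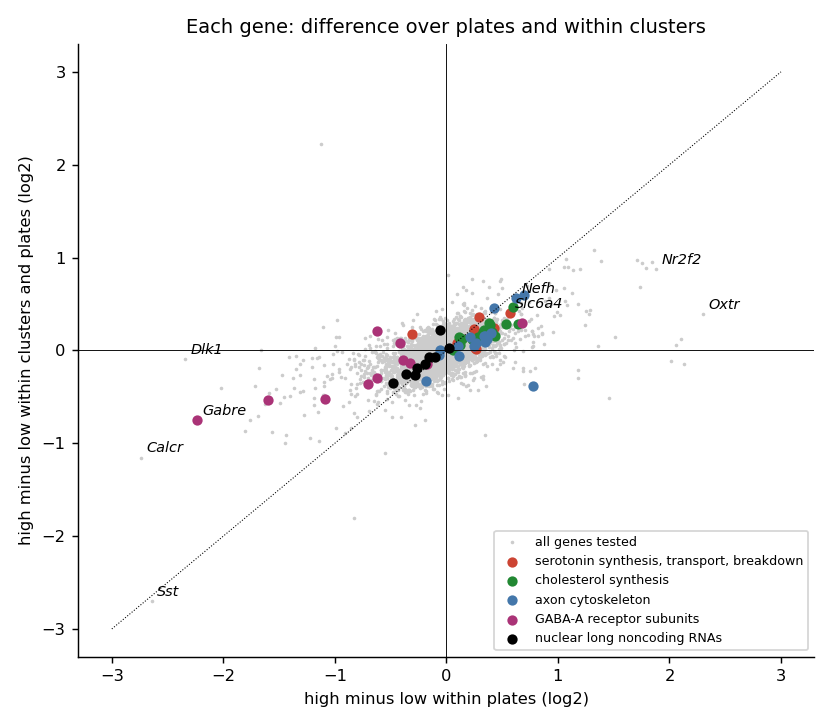
Difference between Tph2-high and Tph2-low cells (log2) over plates (x axis) against the same within clusters (y axis) for each of 8086 genes, with 5 lists coloured; the dotted line marks equal values. Dlk1 lies near 0 on the y axis (-2.34 over plates and -0.10 within clusters), while Slc6a4 lies near the line (0.57 and 0.40).

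In other lists, to be read beside 5.43% higher and 7.00% lower of all genes, excitability channel genes gave 3 higher and 2 lower of 25, such as Cacna1e (0.58 higher) and Kcnd2 (0.55 lower), immediate-early genes 1 higher and 2 lower of 11, with Jun falling by 0.63, heat shock genes 1 of 10 (Hspa8, 0.14), nuclear genes of the respiratory chain 3 higher and 1 lower of 78, and cytosolic ribosomal proteins none higher and 2 lower of 81, such as Rps3a1 (-0.20). The mitochondrial genome gave none of 9. No member of these 6 lists was called within clusters, and Kcnd2 was called in 8 of 16 leave-one-out fits. Markers of median and caudal raphe subtypes gave 3 lower of 6 tested (Grik1, Chrna4, Cnr1) and none within clusters. The other 21 of these 27 markers were under the filter. Cluster 3, led by Piezo2, a gene the study places in a median raphe cluster, held 70 Tph2-high and 5 Tph2-low cells. Markers of principal DR subtypes gave 1 higher (Crhr2) and 2 lower (Dlk1, Htr1d) of 8 tested, with Crhr2 also called within clusters and 15 markers under the filter. The summed level of each of these 2 marker lists was lower in 13 of 16 plates.
Ribosomal RNA took a lower share in Tph2-high cells, with CT010467.1 at plate medians of 192441 CPM in Tph2-low and 175110 in Tph2-high cells, lower in 16 of 16 plates (-0.13, adjusted p = 0.0241). Within clusters it was -0.10 and did not pass (adjusted p = 0.178).

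Markers of other cell types were uneven. The 12 oligodendrocyte markers summed to between 75.5 and 4870 CPM (median 164) in Tph2-low and between 53.5 and 175 (median 115) in Tph2-high cells and were lower in 14 of 16 plates. Mbp was called, lower by 1.18 (adjusted p = 0.0499), and was called in 3 of 16 leave-one-out fits. Its Tph2-low mean reached 3647 CPM in one plate. The 11 astrocyte markers summed to between 677 and 1265 CPM (median 864) in Tph2-low and between 332 and 1255 (median 912) in Tph2-high cells, higher in 11 of 16 plates. Most of that sum was Aldoc, at a mean of 915 CPM, which differed by -0.14 (adjusted p = 0.512), and Slc1a2 was at 0.57 (adjusted p = 0.0569). The summed microglia markers were at 0 to 1.13 CPM and 0 to 18.2, and endothelial markers at 1.13 to 14.2 and 0.29 to 11.6. Cluster 7, which carries Apoe and Mbp, held more Tph2-low than Tph2-high cells, as given above. The part of these markers in the gene results was not tested.

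Asked whether the difference itself differed between dissections, limma with dissection as a term called 2 of 8086 genes (0.0247%). Crip2 was higher in each of the 11 plates labelled all DR (mean 0.83) and -0.30 in the principal DR, a difference of -1.13 (adjusted p = 0.0439). Gabra3 was lower in each of those 11 (-0.73) and higher in the 5 of the principal DR (0.28), a difference of 1.00 (adjusted p = 0.0439). Slc6a4 rose in all 5 principal DR plates (0.36) and all 11 others (0.66). In the principal DR alone no gene passed limma at 5 plates, with 623 at an unadjusted p under 0.05.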

How the data were processed

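Single tdTomato+ neurons were read by Smart-seq2 on 16 plates. The authors aligned reads with STAR 2.6.1a, counted them per gene with HTSeq 0.11.2 (mm10, per the labels) and deposited CPM for 999 of 1536 labelled cells (290 and 709 by dissection), with 537 not analysed here. All CPM values were whole multiples of 1 read within a tolerance of 0.001, so reads were recovered (median 827283 per cell, up to 2780443; counting error only). Symbols were restored with GENCODE M21.

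Within plates, the log2(mean CPM + 1) of Tph2-high cells minus that of Tph2-low cells was fitted by limma 3.58.1 (intercept only, eBayes with trend at its default, Benjamini-Hochberg over 8086 genes with a mean over 10 CPM, Tph2 left out). A fold change on this scale understates the change of low genes. The written design said only that the variance prior would have a trend. A trend over expression level was tried once the calls were known: for a time it replaced the default, after Calcr had been seen not to be called, and it was then put back as an alternative, since it had been prompted by a result. A fit with no trend was added at that point. Differences between dissections used the same 16 differences with dissection as a term. Cell measures were compared by exact sign-flip permutation over plates. Clusters came from Seurat 5.3.0 on 25521 genes without Tph2 (20 components, resolution 1), with no doublet caller run, and are called by number. edgeR 4.0.16 was run on recovered reads. The comparison over plates was tested on simulated cells, drawn gene by gene around plate means with no clusters. That test does not bear on the within-cluster or covariate fits.

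The cells and gene lists were chosen with earlier results of these data known. Named genes were the tested members of the serotonin, cofactor, tryptophan uptake, transcription factor and 14-3-3 lists, the 10 called genes with the largest differences each way and the same sign in at least 14 plates, up to 4 called members of each other list (or the 2 most abundant), and genes called between dissections; names outside this rule were chosen after their values were seen. Some genes that the rule names are not reported here.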

Additional observations from a re-analysis of the deposited data

Results flagged for a closer look

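In the 5 principal DR plates, 9 of 110 named genes had 1 plate far from the other 4 by Dixon's criterion (ratio over 0.71), where chance gives about 1 in 20. In plate SER40 the lone differences were 0.039 for Ywhaz (nearest other plate 0.12), -4.18 for Nell1 (-1.68), -0.71 for Cplx1 (0.20) and -1.35 for Kcnd2 (-0.19). In plate SER39 they were 0.38 for Crhr2 (1.41), 0.086 for Htr1d (-0.55) and -0.15 for Acss2 (0.78). Tubb5 stood at -0.17 in plate SER13 (0.019) and Snhg11 at -0.66 in plate SER25 (-0.15). SER39 and SER40 are small plates of 28 and 41 cells.

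The difference between Tph2-high and Tph2-low cells itself differed between dissections for Crip2 (principal minus all DR, -1.13, adjusted p = 0.0439 in limma) and Gabra3 (1.00, adjusted p = 0.0439). With plate differences centred on the median gene Crip2 was not called (adjusted p = 0.0539) and Gabra3 was (adjusted p = 0.0498). Dissection, plate set and subtype cannot be told apart here. Clusters 4, 8 and 9 hold only principal DR cells, and clusters 2, 3, 5, 6 and 11 hold only all DR cells.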

How the results depend on the processing

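The 1005 calls stayed within 1.5 times (748 to 1130) under other pseudocounts, filters, other fractions of cells, CPM without Tph2 or ribosomal RNA, centring, thinning (886), edgeR (1130), all DR plates alone, exclusion of 10 cells under 1000 CPM of Tph2, and no variance trend (1022, of which 996 were among the 1005); only the lower calls left that range, at 351 with a filter of 50 CPM, which tests fewer genes. Leaving out a plate gave 767 to 1124 calls (338 to 487 higher, 429 to 637 lower). A variance trend over expression level, chosen after the calls were seen, gave 1157 calls (964 shared). Its effect was greater within clusters, where the default gave 106 (56 higher, 50 lower), the level trend 262 (143, 119) and no trend 132 (63, 69), and between dissections, where 2 became 29 with the level trend, 4 with no trend and 1 with centring; the default is reported throughout. Thinning within clusters gave 42 (21, 21). The slope on Tph2 over all cells gave 2061 (2009, 52; median gene 0.19) and log2 values averaged over cells 3120 (2931, 189). With the reads and detected genes of the cell as covariates the slope gave 12 (4, 8), with 1327 at an unadjusted p under 0.05. The plate difference in detected genes as a covariate gave 0 (0, 0) in limma, with 204 at an unadjusted p under 0.05; it extrapolates to plates with no such difference, and none exists. The principal DR alone gave 0 (0, 0). With no replicate block (the 32 plate means as separate samples) limma gave 315 (134, 181), of which 307 were among the 1005; the plates pair the groups by construction. The causes of these changes were not tested. Signs turned with the plate difference in detected genes as a covariate for Maob (-0.49), Slc22a3 (0.18), Spr (-0.11), Pcbd2 (-0.043), Lmx1b (0.23), Gata2 (0.061), En1 (0.14), Ywhah (-0.050), Ywhaz (-0.0057), Gal (-2.99), Oasl2 (-0.14), Gsta4 (-0.93), Dlk1 (0.78), Cadps (0.034), Vamp1 (0.42), Cplx2 (0.074), Kcnd2 (0.88), Kcnj3 (-0.012), Grik1 (0.21), Chrna4 (0.66), Slc1a2 (-0.21), mt-Co1 (-0.022), mt-Cytb (-0.21), Uqcrc2 (0.15), Hsd17b7 (-0.71), Gabra2 (0.28), Snhg11 (0.016), Crip2 (-0.38), Gabra3 (0.51). The sign changed within clusters (under each variance trend) for Slc22a3 (0.18), Gchfr (0.029), Qdpr (0.0019), Cplx2 (0.14), Kcnj3 (-0.023), Aldoc (0.044), Crip2 (-0.15), Gabra3 (0.085). Reversals occurred within clusters after thinning for Maoa (-0.013), Slc22a3 (0.18), Gchfr (0.036), Spr (-0.0055), Qdpr (0.013), Lmx1b (0.0092), Pcdh15 (-0.094), Cplx2 (0.15), Kcnj3 (-0.11), Aldoc (0.042), Crip2 (-0.13), Gabra3 (0.14). Direction was lost in edgeR with the plate as replicate block for Ywhaq (0.0058). A turn of sign was seen in the slope with reads and detected genes as covariates for Slc29a4 (-0.13), Aldh2 (-0.0033), Spr (-0.050), Ywhab (-0.040), Ywhah (-0.0037), Nefm (-0.092), Mbp (0.036), Ndufb6 (-0.0093), Tubb4a (-0.061), Tubb3 (-0.0094). The direction changed in all DR plates alone for Ywhaq (0.015), mt-Cytb (-0.00037). Turned signs were seen in principal DR plates alone for Maoa (-0.00070), Slc22a3 (0.086), En1 (0.081), Ywhab (-0.014), Kcnj3 (-0.12), Aldoc (0.091), Tubb5 (-0.0073), Crip2 (-0.30), Gabra3 (0.28). Opposite signs appeared in the slope on Tph2 for Slc22a3 (0.16), Gchfr (0.097), Pcbd1 (0.066), Lmx1b (0.19), Gata2 (0.021), En1 (0.20), Vamp1 (0.062), Cplx2 (0.12), Jun (0.023), Klf6 (0.13), Mbp (0.064), Uqcrc2 (0.039), Gabra3 (0.17). Directions turned with log2 values averaged over cells for Lmx1b (0.31), En1 (0.28), Ywhaq (0.0051), Vamp1 (0.11), Mbp (0.031).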

Other observations

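Outside the lists, the genes called both over plates and within clusters included Homer2, a postsynaptic scaffold, which was 0.75 higher within clusters (adjusted p = 0.012). Glra2, a glycine receptor subunit, was lower within clusters (-0.55, adjusted p = 0.000529), alongside the GABA-A subunit Gabrq. Sgk1, a stress-responsive kinase, was called within clusters only (0.42, adjusted p = 0.0242). These were chosen after their values were seen.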
